A study of Gallus gallus with 6 samples.

Results

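The genes of the cytosolic ribosomal proteins were examined in the basilar papilla (BP) of chicks, the hearing epithelium of the bird inner ear, of which the basal part was dissected. Every gene whose symbol is RPL or RPS followed by a digit, RPSA, or RPLP0, RPLP1 or RPLP2 was taken from the array's annotation, the RPS6K kinases were left out, and each gene was represented by its brightest probe set, a group of short probes for a transcript. This gave 67 of 13009 genes, 43 named for the large and 24 for the small ribosomal subunit. The choice used symbols and brightness and no difference between groups.

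All chicks were wild type and 12 to 16 days old. There were 3 groups: untreated age-matched controls (0 hr), chicks taken 48 hrs after gentamicin and chicks taken 72 hrs after it. Gentamicin is an antibiotic toxic to hair cells (HCs), the sensory cells of the BP. Each group had 2 arrays of the Affymetrix chicken genome type, and the RNA for an array was pooled from several papillae, so that the errors below describe pools and not single chicks. The array titles number the biological replicates 1 and 2, which was followed here, although another label gives the number 2 to both control and both 48 hr arrays.

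The median log2 intensity over all probe sets was 4.73 to 4.92 on the 6 arrays. Among markers of the cells that the dissected tissue may hold, the log2 of the summed intensity was 14.61 to 14.78 for those of supporting cells (10 genes). For those of HCs it was 11.47 and 11.36 on the control arrays (12 genes, with ATOH1 under 5 throughout). At 48 hrs it was 12.05 and 12.09, and at 72 hrs 12.23 and 11.45 (replicate 1 first). The single HC markers differed from controls by log2 values of -1.10 to 4.55 at 48 hrs and -1.26 to 3.50 at 72 hrs. Their medians were 0.00 and 0.02. Single markers of supporting cells differed from controls by -1.58 to 0.33 at 48 hrs, with 2 above and 8 below 0 and a median of -0.18. At 72 hrs they differed by -0.92 to 0.49, with 5 above and 5 below 0 and a median of 0.07. A sum can follow 1 bright or strongly raised gene, so these sums do not measure how many HCs or supporting cells were present. Markers of connective tissue reached 11.55 on the control replicate 1 array and 9.003 to 9.73 on the others (9 genes, with PDGFRA, TWIST1 and POSTN under 5), those of leukocytes 8.60 to 9.96 (8 genes, with PTPRC, CYBB and SPI1 under 5), those of red blood cells 7.42 to 10.02 (5 genes, with HBE, HBZ and SLC4A1 under 5) and those of glia and neurons 12.61 to 13.05 (8 genes).

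Ribosomal proteins form, with ribosomal RNA, the particles that translate mRNA into protein. The small subunit reads the mRNA and the large subunit joins the amino acids, and P proteins form a stalk on the large subunit that recruits elongation factors. Ribosomal protein mRNAs are abundant in nearly every cell, and most begin with a pyrimidine tract through which their translation, more than their amount, follows growth signals. In birds lost HCs are replaced from supporting cells, in part by division, and cells that divide make new ribosomes.

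Of the 67 genes, 60 were taken by their symbols as ribosomal proteins proper, RPS4Y1 among them. Another 6 are paralogs with their own symbols (RPL3L, RPL7L1, RPL22L1, RPL26L1, RPL39L and RPS27L), and RPS19BP1 encodes a protein that binds RPS19 and is no part of the ribosome, but its symbol fits the pattern. All 67 symbols were found in RefSeq (assembly GRCg7b), spread over 27 chromosomes with 4 on Z and 0 on W. From a list of 77 standard ribosomal protein symbols 59 were found, and 18 were not analysed here, among them RPSA.

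The ribosomal protein genes were among the brightest of the array in every group. Their median log2 intensity was 12.36 and 12.15 on the control arrays (replicate 1 first, as in all pairs of values below), 12.47 and 12.12 at 48 hrs and 12.42 and 11.94 at 72 hrs, while the median of all 13009 genes lay between 6.41 and 6.57. The median member stood at a percentile of 98.3 to 99.3 among all genes. Although the 67 genes are 0.515% of the genes, they held 5.48% and 4.999% of the summed intensity of all genes on the control arrays, 5.78% and 4.89% at 48 hrs and 5.70% and 4.39% at 72 hrs. On each array 22 to 37 of the 100 brightest genes were ribosomal protein genes. The median and the share of intensity were lower on the replicate 2 array in each of the 3 groups. The intensities are relative to the other transcripts of an array, and in a pool of whole tissue fewer cells of a type and less RNA per cell cannot be told apart.

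The medians of the subunits lay close together. Averaged over the 6 arrays, the large subunit genes had a median log2 intensity of 12.22 and the small subunit genes of 12.30, and 26 of 43 and 17 of 24 were at 12 or more. The middle of the distribution was narrow: 50 to 55 of the 67 genes lay within 1 of the array's median on the log2 scale. The interquartile range was 0.88 and 1.21 on the control arrays, 0.81 and 1.25 at 48 hrs and 0.84 and 1.20 at 72 hrs, against 4.203 to 4.38 for all genes. In all 3 groups it was thus wider in replicate 2. Over any pair of the 6 arrays the log2 intensities of the members correlated with r from 0.971 to 0.997 (Pearson, 67 genes that share arrays and probes, given as a description). For the 60 members with a mean log2 intensity of 10 or more r ran from 0.921 to 0.987.

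**Figure D1:**
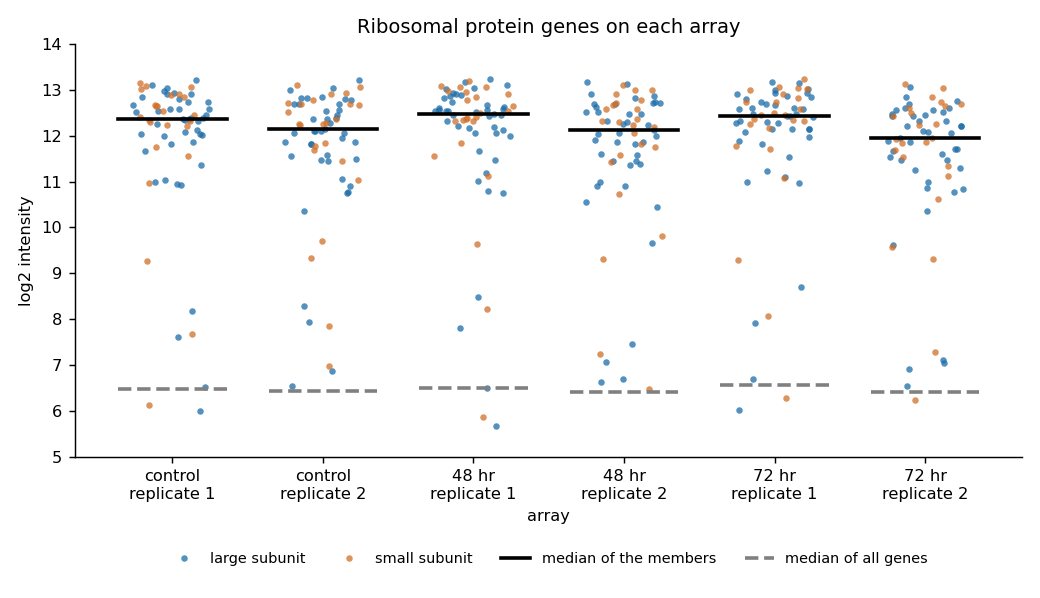
Log2 intensity of the 67 ribosomal protein genes (1 point a gene, coloured by subunit) on each of the 6 arrays, with the median of the members (black line) and of all 13009 genes (dashed line). Most members crowd around a median of 11.94 to 12.47, far above the 6.41 to 6.57 of all genes, and 7 genes with a mean under 10 form a tail below them.

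The brightest members were the small subunit genes RPS6, RPS23 and RPS3A and the large subunit genes RPL9 and RPL35. RPS6, the substrate of the S6 kinases, had 13.16 and 13.11 on the control arrays, 13.198 and 13.11 at 48 hrs and 13.23 and 13.12 at 72 hrs, the smallest SD of any member (0.05 over 6 arrays). RPL9 had 13.10 and 13.22, then 13.18 and 13.18, then 13.16 and 13.06. For both genes the treated groups overlapped the controls. RPL35 averaged 13.10, RPS23 12.99 and RPS3A 12.98. The brightest member of an array ranked 5 to 10 among all genes, and its log2 intensity of 13.12 to 13.24 came within 0.21 to 0.40 of the brightest probe set of the array (13.46 to 13.58). The part of signal near the top of the scale in the small spread of these genes was not tested.

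The genes of the stalk lay somewhat below the middle. RPLP0, the anchor of the stalk, had log2 intensities of 11.83 and 11.49 on the control arrays, 11.67 and 11.38 at 48 hrs and 11.81 and 11.46 at 72 hrs. RPLP1 had 12.03 and 11.55, then 12.18 and 11.45, then 11.89 and 11.46. RPLP2 had 11.87 and 11.81, then 12.06 and 11.82, then 11.98 and 11.88. The replicates differed more than the groups for RPLP0 and RPLP1. For RPLP2 both 72 hr arrays were above both control arrays, with a log2 fold change of 0.09 (95% interval -0.27 to 0.46, limma).

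At the other end, 7 members had a mean under 10. The nearest to that level were RPS28 at 10.38 above it and RPS19BP1 at 9.36 below it, followed by RPL22L1 (7.97), RPS27L (7.72), RPL31 (7.63), RPL23 (6.70), RPS13 (6.33) and RPL3L (6.24). RPL3L, which in mammals is a muscle form of RPL3, had 5.999 and 6.55 on the control arrays, 5.67 and 6.63 at 48 hrs and 6.02 and 6.55 at 72 hrs, close to the median of all genes. RPL31, RPL23 and RPS13 are obligatory ribosomal proteins, and yet RPS13 had only 6.13 and 6.98, then 5.87 and 6.47, then 6.29 and 6.24. RPL23 had 6.52 and 6.87, then 6.49 and 6.70, then 6.69 and 6.91. RPL31 had 7.60 and 7.93, then 7.81 and 7.46, then 7.91 and 7.05. Probe sets differ in how strongly they bind, so this order is one of signals and not of mRNA amounts. The genes with a paralog's symbol were not all dim, since RPL26L1 averaged 12.81, RPL39L 11.75 and RPL7L1 10.97. RPL26 and RPL39 were among the standard symbols not found, and whether RPL26L1 and RPL39L stand for them in this annotation was not tested.

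At 48 hrs after gentamicin no ribosomal protein gene was called. The median log2 fold change (48 hr minus control, difference of group means) was 0.00 over the 67 genes, with 34 values above and 33 below 0, and it was 0.07 in replicate 1 and -0.06 in replicate 2. Over the 1727 genes with a mean log2 intensity of 10 or more it was -0.02, with 796 above and 931 below 0. Over all 13009 genes it was 0.01, with 6764 above and 6234 below 0. By the fold rule of the study, a log2 difference over 0.6 or under -0.6 without a test, 0 of 67 passed, where 12.1% of all 13009 genes and 1.16% of the 1727 genes with a mean log2 intensity of 10 or more passed in either direction. limma, fitted to all 6 arrays, called 0 members, 0% of all 38382 probe sets higher and 0% lower, and 0 members had an unadjusted p under 0.05, as had 2.71% of all probe sets. The 95% confidence interval of the log2 fold change lay wholly within the fold rule's limits for 40 of 67 genes (median standard error 0.20). That was 59.7% of the members, near the 57.4% of the genes of 10 or more, and 13.3% of all genes had such an interval. This fit leaves out the replicate number, so its intervals contain the difference between the replicates that is described below. Leaving out 1 array moved the median to -0.12 without 48 hr replicate 1 or 0.14 without 48 hr replicate 2. The fold rule count did not stay at 0 with an array of these groups left out.

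The members with the highest values at 48 hrs were RPL32 at 0.21 (95% interval -0.20 to 0.61), RPS19BP1 at 0.18 and RPL13 at 0.17. RPL32, a large subunit protein, had 12.35 and 12.07 on the control arrays and 12.54 and 12.29 at 48 hrs, so that the groups overlapped although replicate 1 was higher by 0.19 and replicate 2 by 0.22. The lowest were RPL22L1 at -0.46 (95% interval -1.80 to 0.88), RPL7A at -0.43 (-1.68 to 0.82) and RPS13 at -0.38. For RPL22L1, a paralog of RPL22, the replicates went opposite ways, 8.19 to 8.48 in replicate 1 and 8.28 to 7.07 in replicate 2. Both 48 hr arrays lay above both controls for 3 members (RPS23, RPS7 and RPL22) and below them for 2 (RPS3A and RPL7L1), where 15.7% of all genes lay above and 13.4% below (12.2% and 16.7% of the genes of 10 or more). RPS23 had 12.90 and 12.90 in controls and 13.08 and 12.99 at 48 hrs, a log2 fold change of 0.13, and the shares of members that did not overlap were under those of all genes in both directions. Overlap also depends on the replicate difference described below, so these shares do not measure how steady the members were. In both replicates 20 members were higher and 12 lower than the control of the same number. Of the 13009 genes 3645 and 3249 were, and of the 1727 genes of 10 or more 442 and 539.

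At 72 hrs again no ribosomal protein gene was called. The median log2 fold change (72 hr minus control) was -0.07, with 13 values above and 54 below 0. Over the 1727 genes of 10 or more it was -0.04, with 745 above and 982 below 0. Over all 13009 genes it was 0.01, with 6726 above and 6273 below 0. The members' median was 0.05 in replicate 1 and -0.19 in replicate 2, so its sign rested on the replicate 2 arrays. By the fold rule 0 of 67 passed, where 15.5% of all genes and 1.91% of those of 10 or more did. limma called 0 members, against 0.0469% of all probe sets higher and 0.0417% lower, and 0 members had an unadjusted p under 0.05 (3.65% of all probe sets). The interval lay within the fold rule's limits for 40 of 67 genes (59.7%), beside 53.7% of the genes of 10 or more and 12.2% of all genes. With 1 array left out the median ran from -0.26 (without 72 hr replicate 1) to 0.10 (without 72 hr replicate 2), and the fold rule count again did not stay at 0.

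The values at 72 hrs ranged from -0.32 to 0.14. RPS23, a protein of the decoding centre of the small subunit, was at the top, with 13.04 and 13.04 against 12.90 and 12.90 in controls (log2 fold change 0.14, 95% interval -0.17 to 0.44). RPL21 was at 0.13 and RPS21 at 0.11. At the bottom were RPL22L1 at -0.32, RPS24 at -0.31 and RPS13 at -0.29. RPS24, a small subunit protein, had 12.30 and 12.24 in controls and 12.37 and 11.55 at 72 hrs, hence lower by 0.69 in replicate 2 and not in replicate 1. RPL22L1 showed the same division, with 8.70 and 7.12 at 72 hrs. Both 72 hr arrays were above both controls for RPS23 and RPLP2 and below them for RPL8 and RPS4Y1, 2 and 2 of 67, where 15.9% of all genes were above and 12.9% below (10.9% and 16.4% of those of 10 or more). RPL8, a protein next to the catalytic centre, had 12.91 and 12.81 in controls and 12.74 and 12.43 at 72 hrs, a log2 fold change of -0.27 (95% interval -0.66 to 0.11).

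Between the treated groups the median difference (72 hr minus 48 hr) was -0.06 (-0.03 in replicate 1 and -0.12 in replicate 2). It was -0.01 over the genes of 10 or more and -0.001 over all genes. Of the members 0 passed the fold rule (14.7% of all genes, 1.39% of those of 10 or more) and 0 were called by limma (0.0208% of all probe sets higher, 0.0287% lower, and 0 members with an unadjusted p under 0.05, against 3.35% of all probe sets). The extremes were -0.27 and 0.31. Without 1 array the median was -0.29 (without 72 hr replicate 1) to 0.10 (without 72 hr replicate 2), and the fold rule count did not stay at 0. Both 72 hr arrays lay below both 48 hr arrays for 6 members (RPL9, RPL13, RPL22, RPL32, RPS15A and RPS19BP1) and above them for 0, where 14.2% of all genes lay below and 14.3% above (12.8% and 11.8% of those of 10 or more). Controls are shared by the comparisons at 48 and 72 hrs, and the 48 hr arrays by those at 48 hrs and between the times, so these counts are not independent of each other.

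**Figure D2:**
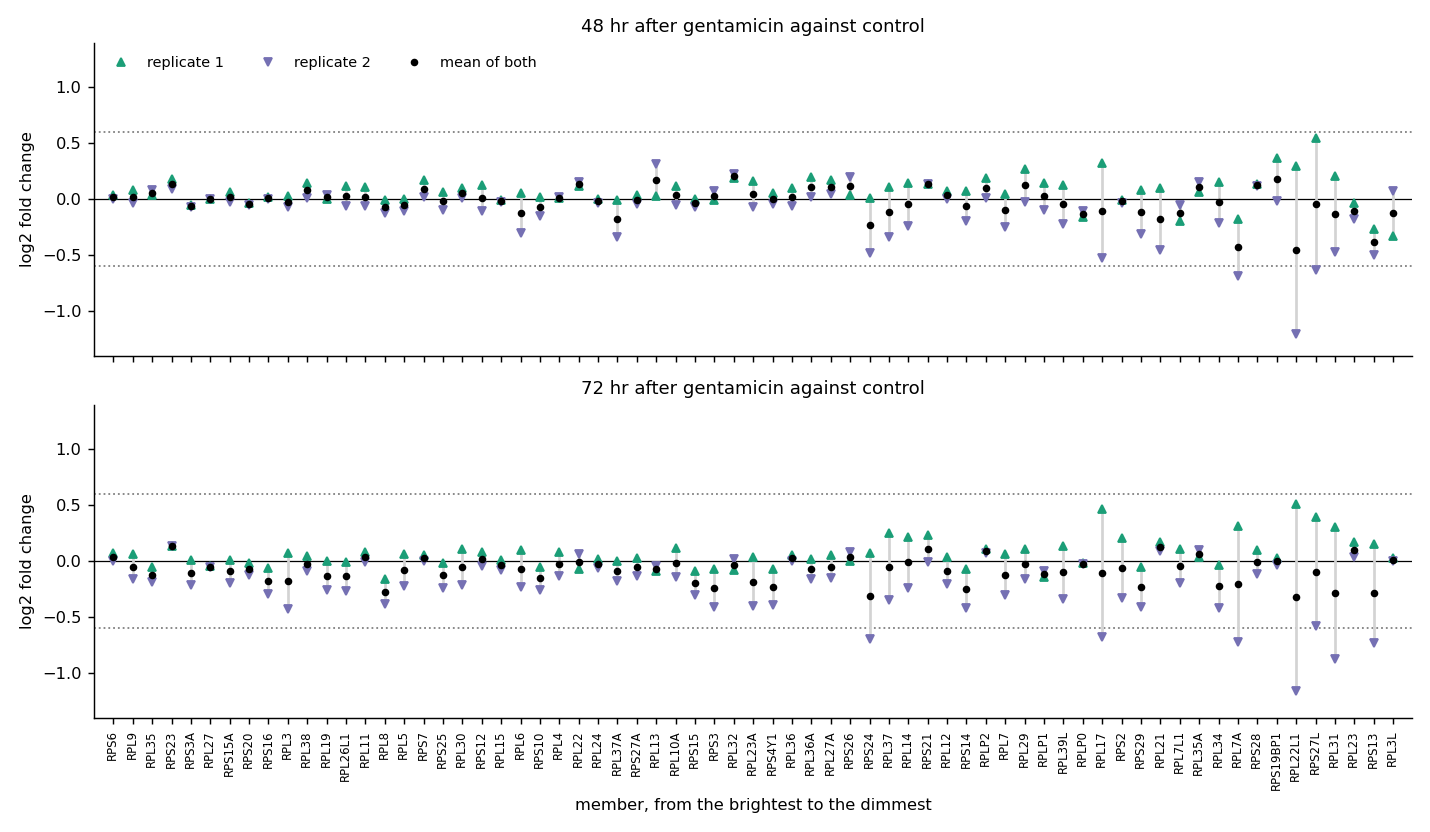
Log2 fold change of each of the 67 members at 48 hrs (top) and 72 hrs (bottom) against controls, ordered from the brightest to the dimmest, for replicate 1, replicate 2 and the mean of both, with dotted lines at the fold rule's limits of 0.6 and -0.6. The black points keep within -0.46 and 0.21 at 48 hrs and within -0.32 and 0.14 at 72 hrs, while at 72 hrs the replicate 2 points lie under those of replicate 1 for most genes.

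The log2 fold changes of the members lay closer together than those of the other sets, which were dimmer. The SD of their log2 fold changes was 0.13 at 48 hrs and 0.11 at 72 hrs, against 0.19 and 0.22 for the genes of 10 or more and 0.44 and 0.53 for all genes. No test was made of this, since genes that share arrays are not replicates. The sets were not matched for brightness: the median level in controls was 12.27 for members and 10.83 for the genes of 10 or more. The part of brightness in the smaller SD was not tested. Over the 6 arrays the picture differed: the median SD of a member was 0.19, against 0.17 for the genes of 10 or more, and 53.7% of members and 61.1% of those genes had an SD under 0.2. The 22 brightest members had a median SD of 0.13 and the other 45 of 0.23.

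Arrays of the same group differed more than the groups. The difference of replicate 1 minus replicate 2 was positive for 50 of 67 members in controls, 58 at 48 hrs and 62 at 72 hrs, with medians of 0.14, 0.30 and 0.37 on the log2 scale. The same medians for the genes of 10 or more were 0.01, 0.03 and 0.01. The 48 members that were higher on the replicate 1 array in all 3 groups made up 71.6%, where 26.9% of the genes of 10 or more and 21.0% of all genes were. The signed difference was larger at 48 hrs than in controls for 55 members and larger at 72 hrs than in controls for 60. The mean difference over the 3 groups was larger in size than the log2 fold change for 59 members at 48 hrs and 58 at 72 hrs. The counts of 55, 60, 59 and 58 were made for members only, so how common such differences are among other genes was not tested.

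RPS28, a small subunit protein, had the widest gap. It had log2 intensities of 10.98 and 9.70 on the control arrays, 11.12 and 9.82 at 48 hrs and 11.07 and 9.58 at 72 hrs. Every replicate 1 array was thus above every replicate 2 array, by 1.28, 1.30 and 1.49, while the log2 fold changes were 0.13 and -0.01. RPS29, a zinc finger protein of the small subunit, had 11.76 and 11.04, then 11.85 and 10.73, then 11.71 and 10.62. These were the only members whose difference exceeded 0.6 in all 3 groups. With the replicate number as a term in limma, a fit added after the data were seen, RPS28 was higher in replicate 1 by 1.36 (standard error 0.11, adjusted p = 0.034 over all probe sets). It was the only member called, where 0.0834% of all probe sets were called higher and 0.00521% lower, and 0.232% of the genes of 10 or more were called in either direction. RPS29 had 0.98 (adjusted p = 0.061), and 34 members were higher and 1 lower at an unadjusted p under 0.05. The share of all probe sets at that unadjusted level was not computed, so these 2 counts have no background to be read against.

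The other members with a large SD over the 6 arrays followed the replicates too. RPL7A, a large subunit protein, had 10.93 and 10.35 in controls, 10.75 and 9.66 at 48 hrs and 11.24 and 9.62 at 72 hrs. RPL17, which lines the exit tunnel of the growing peptide, had 11.67 and 11.44, then 11.99 and 10.91, then 12.14 and 10.77. In these 2 genes and in RPL22L1 the gap was wider in the treated groups than in controls. RPL22L1 and RPS27L had no such gap in controls, where replicate 2 was higher by 0.09 and 0.19 (differences of -0.09 and -0.19), but differences of 1.41 and 0.99 at 48 hrs. Of all members 2 were lower on the replicate 1 array in all 3 groups, the dim genes RPL23 and RPL3L.

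**Figure D3:**
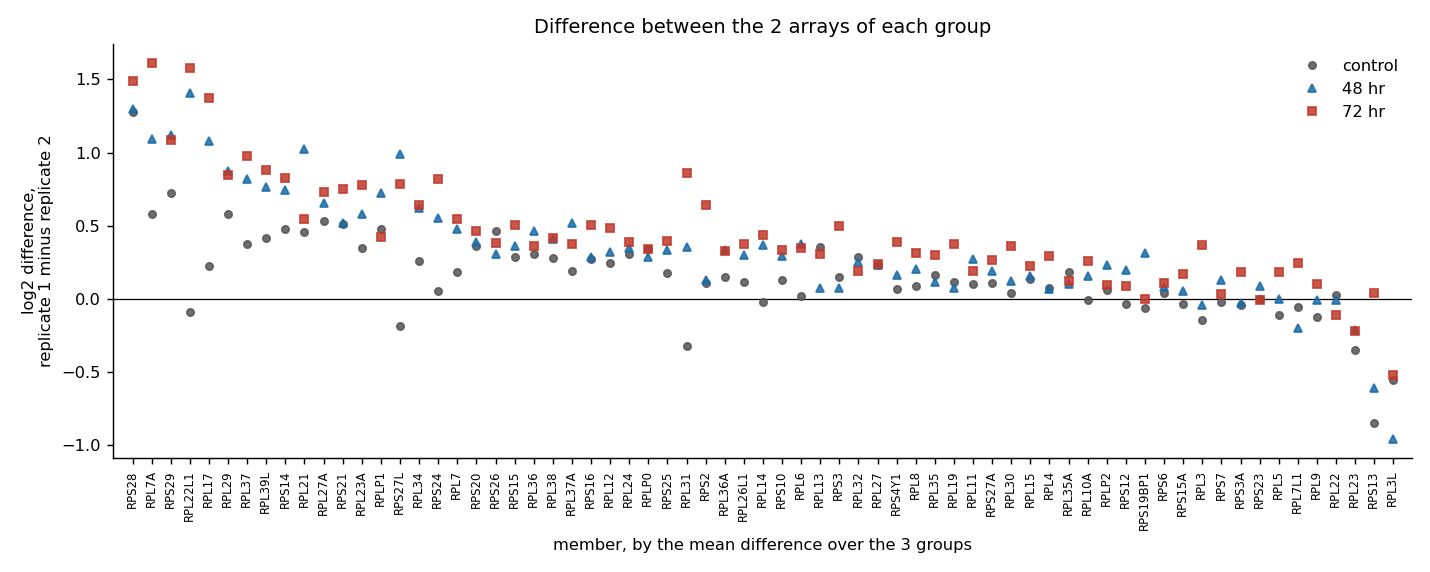
Log2 difference between the replicate 1 and the replicate 2 array of the same group for each of the 67 members, ordered by the mean over the 3 groups (control, circles, 48 hr, triangles, 72 hr, squares). Of the 67 points of a group, 50 in controls, 58 at 48 hrs and 62 at 72 hrs lie above 0, RPS28 stands at 1.28 to 1.49 in every group, and the treated groups lie above the controls for most genes.

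Several technical values of the arrays moved with the replicate number. Bacterial poly-A RNAs, which are added to a sample before labelling, were brighter on the replicate 1 arrays: that of dap had 10.69 and 5.64 with the controls, 10.32 and 7.27 with the 48 hr and 9.89 and 6.03 with the 72 hr samples. Those of thr ranged from 7.63 to 8.37 on replicate 1 and from 3.21 to 4.75 on replicate 2. The log2 difference between the 3' and the 5' probe set of GAPDH, which is large when RNA is degraded or its copy is short, was 2.46 and 3.31, 3.003 and 4.97, and 2.05 and 4.58. That of EF1A was 1.73 and 1.85, 1.95 and 3.01, and 1.59 and 3.94, and so larger in replicate 2 throughout. That of actin, at 3.51 and 3.62, 3.97 and 3.93, and 3.65 and 5.03, was larger in replicate 2 in controls and at 72 hrs but not at 48 hrs. The hybridization control cre was at 13.05 to 13.07 on replicate 1 and at 13.24 to 13.33 on replicate 2. The part of these values in the difference of the ribosomal protein genes was not tested.

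Split by source, the variation of the members went mainly with the replicate number. Of the sum of squares of the members' log2 values about their own means over the 6 arrays, 76.6% went with the replicate number, 8.57% with the time group and 14.8% with the rest. For the genes of 10 or more the shares were 42.5%, 31.0% and 26.5%, and for all genes 29.97%, 39.5% and 30.5%. The replicate number has 1 of 5 degrees of freedom and the time group 2. The sums of squares were pooled over the genes of a set, so genes with a large SD weigh most in these shares. Across the 67 members the replicate difference in controls correlated with that at 48 hrs (r = 0.69) and at 72 hrs (r = 0.58), and those at 48 and 72 hrs with each other (r = 0.87). For the genes of 10 or more the 3 values were 0.40, 0.29 and 0.62. These are Pearson correlations across genes of the same arrays and are given as a description.

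**Figure D4:**
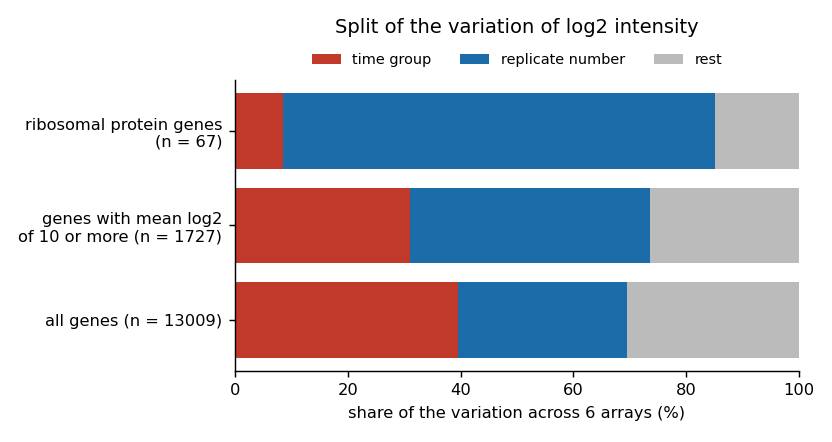
Shares in percent of the variation of log2 intensity across the 6 arrays that go with the time group, the replicate number and the rest, for the 67 ribosomal protein genes, the 1727 genes with a mean log2 intensity of 10 or more and all 13009 genes. The replicate number takes 76.6% in the ribosomal protein genes, against 42.5% and 29.97% in the others, with the sums of squares pooled over the genes of a set.

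The choice of the brightest probe set mattered for the level of these genes. The 67 genes had 141 probe sets, 35 genes had several, and the mean log2 intensities of the probe sets of a gene differed by between 0.15 (RPL36) and 10.32 (RPL7). Of the 141, 79 had a mean of 10 or more and 30 of under 5. RPL24, a large subunit protein, had 7 probe sets, with means of 12.41, 12.12, 11.90, 10.71, 7.28, 3.06 and 2.41. RPS25 also had 7, with 3 at 11.67 or more and 4 at 6.26 or less. For RPS13 all 5 probe sets were dim, from 2.15 to 6.33. The name of the brightest probe set ended in a for 24 genes (probes shared by transcripts of the gene), in s for 16 and in x for 3 (probes that can be shared with other genes), and those signals cannot be assigned to a single transcript. For the other 24 genes the name had no such ending.

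Bright probe sets of the same gene mostly gave a replicate difference of the same sign, though not of the same size. They were read on the same arrays and are not independent of each other. Of 19 further probe sets with a mean of 10 or more, 16 were on average higher on replicate 1 and 3 lower. The 4 bright probe sets of RPL24 had mean differences of 0.35, 0.46, 0.49 and 0.81, and the 3 of RPS25 of 0.30, 0.35 and 0.50. In RPL36 the brightest had 0.38 and the other 0.05, and in RPL10A the 2 bright ones had 0.14 and 0.48. RPLP1 and RPS14 did not keep to the same sign. The brightest probe set of RPLP1 had 0.54 and its second -0.19, and those of RPS14 had 0.68 and -0.21. Their log2 fold changes differed too. The second of RPS14 was at -0.53 at 48 hrs and -0.84 at 72 hrs, where the brightest was at -0.06 and -0.25. The second of RPLP1 was at 0.33 and 0.00, where the brightest was at 0.02 and -0.12. That of RPS14 was thus past the fold rule's limit at 72 hrs, and the fold rule counts of members hold for the brightest probe sets only.

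**Figure D5:**
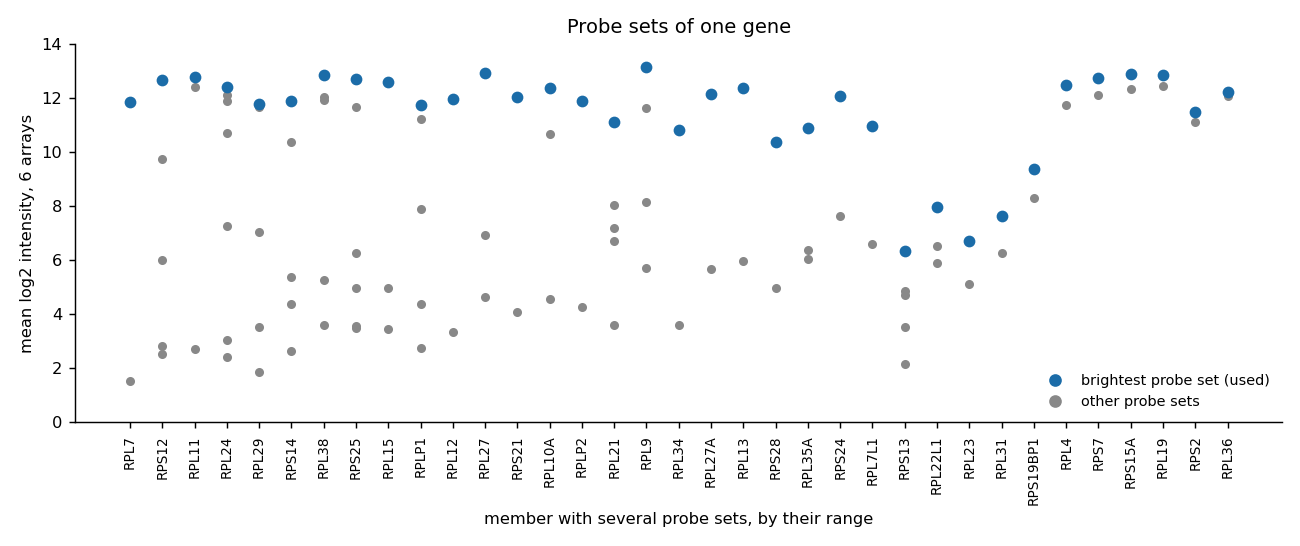
Mean log2 intensity over the 6 arrays of each probe set of the 35 members with several, with the brightest, which was used, in blue and the others in grey. The genes are ordered by the range of their probe sets, from RPL7 (10.32) to RPL36 (0.15), and in most genes the lower probe sets lie far below the used one.

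Of the 4 members on the Z chromosome, of which cocks carry more copies than hens, RPS6 and RPS23 have been given above. RPL37 had 12.32 and 11.95 on the control arrays, 12.43 and 11.61 at 48 hrs and 12.58 and 11.60 at 72 hrs. The median log2 fold change of the 4 genes was -0.04 at 48 hrs and -0.01 at 72 hrs. The 76 Z genes with a mean of 10 or more had -0.01 and 0.16, and 1637 genes of that brightness on other chromosomes -0.02 and -0.04. The 4 members are counted among the 76. At 72 hrs they had medians of 0.19 in replicate 1 and -0.17 in replicate 2, against 0.25 and 0.14 for the 76, and RPS23 was at 0.14. No difference between these sets was tested.

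Genes that build ribosomes were examined beside them, in lists chosen by function. Of 38 ribosome assembly genes 32 were found, with a median log2 fold change of 0.15 at 48 hrs and 0.07 at 72 hrs, and 2 were higher and 0 lower by the fold rule at 48 hrs (NHP2 and WDR43), 2 and 1 at 72 hrs (WDR43 and UTP15 higher, WDR12 lower). The rule was passed upward by 6.82% and downward by 5.29% of all genes at 48 hrs, and by 9.28% and 6.26% at 72 hrs. These shares are also the background for the lists below. Both 48 hr arrays were above both controls for 17 of the 32 and below them for 1, where 15.7% of all genes were above and 13.4% below. At 72 hrs the counts were 9 and 2, where 15.9% and 12.9% of all genes were. WDR43, of the small subunit processome, had 7.80 and 7.49 in controls, 8.34 and 8.18 at 48 hrs and 8.08 and 8.81 at 72 hrs. The treated groups lay wholly above the controls, with log2 fold changes of 0.61 and 0.80. RIOK2, a kinase of small subunit maturation whose gene lies on Z, had 0.21 and 0.48, and DKC1, which modifies ribosomal RNA, 0.26 and 0.34. limma called none of the 32 at either time, and 0 had an unadjusted p under 0.05 at 48 hrs and 1 at 72 hrs.

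RNA polymerase I, which transcribes ribosomal RNA, and its factors had a median of 0.22 at 48 hrs and 0.08 at 72 hrs (11 of 14 genes found), with 0 past the fold rule at 48 hrs and 3 higher and 0 lower at 72 hrs (TAF1D, POLR1D and UBTF). TAF1D, a subunit of the selectivity factor SL1, had 9.15 and 9.01 in controls, 9.02 and 9.66 at 48 hrs and 9.30 and 10.47 at 72 hrs, so that its log2 fold change of 0.80 at 72 hrs came mostly from replicate 2. POLR1E, on Z, had 0.43 and TAF1A -0.34 at 72 hrs. None of the 11 was called by limma or had an unadjusted p under 0.05 at either time.

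Genes of growth control and of other mRNAs with a pyrimidine tract varied gene by gene. Of 17 found growth control genes (19 listed) 2 were higher and 0 lower by the fold rule at 48 hrs (LARP1 and MYCN) and 3 higher and 1 lower at 72 hrs (RICTOR, LARP1 and MYCN higher, RPS6KA3 lower), with medians of 0.00 and -0.01. RICTOR, a subunit of the mTOR complex 2 and also on Z, was at 0.30 and 0.80, while LARP4 (-0.25) and EIF4EBP2 (-0.17), a repressor of translation, kept within the limits at 72 hrs. MYC, a transcription factor that acts on ribosome genes, had 7.18 and 7.74 in controls, 7.43 and 6.98 at 48 hrs and 7.98 and 7.25 at 72 hrs. Its groups overlapped at both times, since replicate 1 was higher and replicate 2 lower than its control. The paper describes a moderate up-regulation of MYC in its array data and gives a fold value, which was not compared with these values. Its text names neither the time nor the probe set. Its supplementary list of genes changed at 48 or 72 hrs was not examined here. The values here are those of the brightest probe set only. Of 14 elongation factors and similar genes (17 listed) 1 was higher and 0 lower at 48 hrs, VIM with 1.06, and 0 passed at 72 hrs, with medians of 0.03 and 0.01. BTF3 was at 0.42 at 72 hrs, EEF1G at 0.39 and EEF1A1, the elongation factor that delivers tRNA, at -0.21. No gene of these lists was called by limma (unadjusted p under 0.05 for 0 genes at 48 hrs in both lists, and for 3 growth control genes and 0 of the 14 at 72 hrs). Of all probe sets 2.71% at 48 hrs and 3.65% at 72 hrs had an unadjusted p under 0.05 in limma.

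Other large complexes were similar in their medians and wider in the spread of their log2 fold changes, and they were also dimmer. The 67 mitochondrial ribosomal protein genes, whose products translate the mRNAs of mitochondria, had a median log2 fold change of 0.02 at 48 hrs and -0.10 at 72 hrs, with SDs of 0.23 and 0.29, and 0 were higher and 1 lower by the fold rule at 48 hrs (MRPL34) and 0 and 4 at 72 hrs (MRPL2, MRPL18, MRPL19 and MRPL43). MRPL43 had 8.53 and 7.88 in controls and 8.39 and 6.58 at 72 hrs, a log2 fold change of -0.72 that came mostly from replicate 2. MRPL18 was at -0.63 and MRPS34 at -0.57. These genes were dimmer than the cytosolic ones, with a median log2 intensity of 8.67 against 12.23, as were the proteasome genes (10.15) and the initiation factors (9.69). Among genes of 10 or more, the median SD over the 6 arrays was 0.156 for 13 mitochondrial ribosomal protein genes. It was 0.179 for 17 proteasome genes, 0.143 for 19 initiation factors and 0.184 for 60 members. At that brightness the other complexes were not wider by this SD, which also takes in the replicate difference. For 30 proteasome genes, which degrade proteins, the medians were -0.03 and 0.00, with 0 higher and 1 lower at 48 hrs (PSMD13) and 0 past the rule at 72 hrs. PSMD12 was at -0.35, PSMB4 at -0.30 and PSMB7 at -0.29 at 72 hrs. For 44 translation initiation factors they were 0.02 and -0.03, with 0 past the rule at 48 hrs and 1 higher and 1 lower at 72 hrs (EIF4B and EIF5B). EIF4B, at 0.79, had a mean log2 under 7. The lowest mean of the 44 genes was 0.26, a level at which fold changes are poorly measured. EIF5B, which joins the subunits, was at -0.80, EIF3A at 0.48 and EIF3B at 0.43. limma called 0 genes of these 3 lists at either time, and an unadjusted p under 0.05 was found at 48 hrs for 1 mitochondrial ribosomal protein gene, 1 proteasome gene and 0 initiation factors and at 72 hrs for none of them.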

How the data were processed

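Each of the 6 arrays gave 1 intensity on a linear scale for 38535 probe sets. The authors had normalized these intensity values when they deposited them. MAS5 is named in the submitters' processing notes and dChip in the study's methods, so which of them made the values is not settled. The arrays' number limits the precision.

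The values were transformed to log2 with no further normalization, and 153 control probe sets were left out, leaving 38382. Platform annotation gave 1 symbol to 27168 of these (13009 symbols), and a gene was represented by the probe set of the highest mean. RefSeq (GRCg7b) gave chromosomes. The log2 fold change is the difference of group means. limma 3.58.1 in R 4.3.3 (lmFit, then eBayes with trend, on 3 residual degrees of freedom and 4.75 from the prior) used all arrays at once. P values were adjusted by Benjamini-Hochberg with a threshold of 0.05, and intervals are at 95%. The fit was also run on simulated data with independent errors for each array. Those data had no shared replicate difference, so that run does not show how the fit behaves with the difference seen here. Python 3.11.15, pandas 2.3.3, numpy 2.4.6 and matplotlib 3.10.9 were used.

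The members, the gene lists and the tests were chosen with earlier results of these data known. By rule the text names the stalk genes, the 5 brightest and 5 dimmest members, the 3 highest and 3 lowest at each time, the 5 with the largest SD, paralogs and Z genes, and up to 3 genes of a list with a mean log2 of 7 or more. MYC, other genes counted past the fold rule, members named for groups that did not overlap, and those named for their probe sets or for a replicate difference were chosen after their values were seen. Alternatives were quantile normalization, equal array medians, a floor of 32, the mean of all probe sets, probe sets without an ending, proper ribosomal proteins only, limma without a trend or with a replicate block, and leaving out each array.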

Additional observations from a re-analysis of the deposited data

How the results depend on the processing

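In limma 0 members were called in all 3 comparisons under every alternative run, among them quantile normalization, equal array medians, a floor of 32, no trend, the replicate block and each array left out. The median log2 difference of the members between 72 and 48 hrs was -0.06 and became -0.13 with equal array medians. With the same scaling the median log2 fold change at 72 hrs went from -0.07 to -0.17 and that at 48 hrs from 0.00 to -0.02. With the mean over all probe sets of a gene 2 members passed the fold rule at 48 hrs and 1 at 72 hrs, and with probe sets without an ending only 1 did at 48 hrs, 3 at 72 hrs and 4 between 72 and 48 hrs, where 0 had passed in each. The mean SD among the members of an array, 1.65, became 2.47 with the mean over probe sets, 3.19 with probe sets without an ending and 1.35 with proper ribosomal proteins only, and the mean interquartile range, 1.03, became 4.55 and 4.82 with the first 2 of these. The share of the variation that goes with the replicate number, 76.6%, became 61.3% and 59.7% with the same 2. These 2 alternatives take in the dim probe sets, and only 44 of the 67 members have a probe set without an ending, so the others kept their own (20 members changed). The medians of replicate 1 minus replicate 2 stayed above 0 in all 3 groups under each scaling and choice of probe sets, and these checks of the replicate numbers were added after the data were seen.

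With 1 array left out, the fold rule counts ran from 1 to 5 at 48 hrs, from 1 to 8 at 72 hrs and from 3 to 5 between the times, and the medians from -0.12 to 0.14, from -0.26 to 0.10 and from -0.29 to 0.10. The SD ran from 1.64 to 1.67 and the interquartile range from 0.989 to 1.08. Of 188 values of single members under the alternatives, 30 moved by more than the spread between replicates.

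The replicate numbers were checked as pairs: the correlations of the replicate differences over 38382 probe sets were 0.162, 0.148 and 0.222. They were 0.40, 0.29 and 0.62 for the genes of 10 or more and 0.69, 0.58 and 0.87 for the members. Each comparison has only 2 pairs, so the main fit did not take the numbers to pair the samples. The values given by replicate number set arrays of the same number beside each other. With the replicate block limma called 0 probe sets at 48 hrs (0 without it), 28 higher and 22 lower at 72 hrs (18 and 16 without it) and 11 and 17 between the times (8 and 11), among them 0 members, and 1 member had an unadjusted p under 0.05 at 72 hrs. The block narrowed the members' intervals, a check added after the data were seen: those within the fold rule's limits became 58 of 67 in each comparison (40 at 48 hrs, 40 at 72 hrs and 37 between the times without it), the median standard error 0.12 and that of RPS28 0.14 instead of 0.62. The count with the block was not made for other genes.

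Groups of 2 arrays made from pools limit what can be seen: a member's log2 fold change had a median standard error of 0.20 without the block. The 7 members under a mean of 10 had standard errors from 0.196 (RPS19BP1) to 0.577 (RPL22L1), and the largest of all members was that of RPS28 (0.62), whose mean was above 10. Of all values 51.7% to 54.4% lay under 32, where fold changes are poorly measured. The brightest members lie near the top of the scale, and whether differences are smaller there was not tested.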

Other observations

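The other large complexes can be set beside the cytosolic ribosomal protein genes in their replicate differences, given here as values. The 67 mitochondrial ribosomal protein genes had medians of replicate 1 minus replicate 2 of 0.09 in controls, 0.33 at 48 hrs and 0.27 at 72 hrs on the log2 scale, and 40, 52 and 49 of them were higher on the replicate 1 array. The 30 proteasome genes had medians of -0.04, 0.02 and -0.01, with 12, 16 and 15 higher. The 44 translation initiation factors had -0.02, 0.09 and 0.19, with 18, 27 and 31 higher. EIF5B, with 8.02 and 6.88 at 48 hrs and 8.18 and 6.27 at 72 hrs, had a wide gap in both treated groups and none of that sign in controls (7.89 and 8.16). Differences between these sets were not tested.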
